A study of Mus musculus with 6 samples.

Results

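The miR-181 family of mature microRNAs was described in brain-derived extracellular vesicles of mice, small membrane-bound particles shed by cells. Its members were taken by name: every deposited row for a 5p or 3p arm of miR-181a, miR-181b, miR-181c or miR-181d, which gave 10 of the 1926 rows, 4 of them 5p arms and 6 of them 3p arms. The study compared vesicles from mice that had been through status epilepticus, a prolonged seizure (SE-BDEV, 3 libraries), with vesicles from control mice (CON-BDEV, 3 libraries), both titled day 10. The strain, age and sex of the mice, the way the seizure was induced and the event from which the day is counted are not stated in the labels. Whether each library is a different animal is likewise not stated, so p-values here reflect sample-to-sample spread only, and that spread may be technical.

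A miRNA hairpin is cut into a duplex, and one arm (5p or 3p, by its side of the hairpin) is usually retained in an Argonaute protein while its partner is mostly degraded. The retained arm recognises messenger RNAs through its seed, bases 2 to 8, so arms with the same seed can share targets. In brain, miR-181a is known to target the AMPA receptor subunit Gria2, and miR-181 members are known to target the anti-apoptotic Bcl2. In developing T cells, miR-181a is known to set the sensitivity of antigen receptor signalling.

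The mature sequences are shown because they define the groups of arms that the values fall into. Each runs 5′ to 3′ with the seed in capitals, from RefSeq (GRCm38.p6), and all 10 members matched an entry by name.
mmu-miR-181a-5p: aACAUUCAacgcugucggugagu
mmu-miR-181b-5p: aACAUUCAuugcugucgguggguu
mmu-miR-181c-5p: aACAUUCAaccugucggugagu
mmu-miR-181d-5p: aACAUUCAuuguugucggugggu
mmu-miR-181a-1-3p: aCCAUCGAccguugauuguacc
mmu-miR-181c-3p: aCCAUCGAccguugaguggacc
mmu-miR-181a-2-3p: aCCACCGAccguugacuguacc
mmu-miR-181b-1-3p: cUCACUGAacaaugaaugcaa
mmu-miR-181b-2-3p: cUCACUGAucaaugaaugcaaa
mmu-miR-181d-3p: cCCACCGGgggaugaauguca

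The 4 5p arms had a single seed, and of the 1679 distinct mature names in the RefSeq table only these 4 had it. The 6 3p arms fell into 4 seeds: miR-181a-1-3p with miR-181c-3p, miR-181b-1-3p with miR-181b-2-3p, and miR-181a-2-3p and miR-181d-3p alone. Counting positions from 1 at the 5′ end of the first-named miRNA, miR-181b-5p and miR-181d-5p differed by C12U over the 23 bases they share. miR-181a-5p and miR-181b-5p differed by A9U, C10U and A21G, and miR-181c-5p equalled miR-181a-5p without the base at position 11. With so few differing bases, reads could be split between these rows by the authors' counting, which is not stated in the labels or file headers, so the partition between miR-181b-5p and miR-181d-5p and between the 3p arms is uncertain.

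The family comes from 6 hairpins in 3 pairs. Mir181a-1 and Mir181b-1 lie together on chromosome 1, within an intron of the gene Gm4258 (annotated as a processed transcript) and overlapping an exon of the long noncoding RNA A430106G13Rik (GENCODE M21). Mir181a-2 and Mir181b-2 lie together on chromosome 2, within an intron of Nr6a1 on the opposite strand. Mir181c and Mir181d lie together on chromosome 8, within an intron of the germ cell gene Nanos3 on the same strand. The hairpins for miR-181a are shown because their 5p arms are identical and only the 3p arms tell the 2 loci apart. The mature arms are in capitals, from RefSeq (GRCm38.p6).
Mir181a-1: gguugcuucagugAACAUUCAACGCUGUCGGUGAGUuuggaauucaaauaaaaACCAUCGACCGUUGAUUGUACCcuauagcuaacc
Mir181a-2: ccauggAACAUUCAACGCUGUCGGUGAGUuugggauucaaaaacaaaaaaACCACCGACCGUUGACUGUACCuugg

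Depth ran between 4400167 and 9391887 miRNA reads a library, and values are RPM, each library's reads rescaled to a common total of 1000000. RPM of miRNAs is not divided by length, the members being 21 to 24 bases long. The neuronal miR-124-3p stood at 6654 to 9540 RPM in SE-BDEV and 7689 to 9134 RPM in CON-BDEV, while 2 red blood cell miRNAs, miR-144-3p and miR-451a, had a listed 0 throughout. The third of that list, miR-486a-5p (a row shared with miR-486b-5p), was at 102 to 111 RPM in SE-BDEV and 83.6 to 199 RPM in CON-BDEV. Both libraries numbered 3 stood apart by miR-24-3p, which was listed at 3128 RPM in SE-BDEV 3 and 3544 RPM in CON-BDEV 3 and at 0 in the other 4. An exact 0 in this table can therefore belong to a miRNA that is abundant in other libraries, and members with a 0 are given as listed, without a mean.

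The 5p arms carried nearly all of the family. The 10 members together made up 0.216% ± 0.0558 of all miRNA reads in SE-BDEV and 0.203% ± 0.0197 in CON-BDEV (SD, n = 3 each). The summed family level was 2402, 1517 and 2548 RPM in SE-BDEV 1 to 3 and 2092, 1804 and 2180 RPM in CON-BDEV 1 to 3. The SE-BDEV sums lay on both sides of the CON-BDEV sums. Within the family the 5p arms held 93.5% ± 0.843 in SE-BDEV and 94.3% ± 0.804 in CON-BDEV (SD, n = 3 each).

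miR-181a-5p, the member best known from brain and T cells, was the most abundant. It was at 1507, 899 and 1577 RPM in SE-BDEV 1 to 3 and at 1359, 1133 and 1303 RPM in CON-BDEV 1 to 3. SE-BDEV 2 was the lowest of the 6 libraries and the other 2 SE-BDEV libraries the highest, so the groups overlapped. Among all miRNAs it ranked between 39 and 46 in the SE-BDEV libraries and at 40 in each CON-BDEV library. miR-181a-5p provided 65.6% ± 2.06 of the 5p arms' RPM in SE-BDEV and 66.3% ± 2.35 in CON-BDEV (SD, n = 3 each).

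miR-181b-5p, which is made from both hairpin pairs on chromosomes 1 and 2 beside miR-181a, came next. It was at 619, 455 and 711 RPM in SE-BDEV and 541, 486 and 643 RPM in CON-BDEV. The lowest library was again SE-BDEV 2. The ratio of miR-181b-5p to miR-181a-5p was 0.456 ± 0.0480 in SE-BDEV and 0.440 ± 0.0484 in CON-BDEV (SD, n = 3 each). These 2 arms together made up 95.4% of the 5p RPM in both groups, with an SD of 0.284 in SE-BDEV and 0.300 in CON-BDEV.

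The arms from chromosome 8 were far lower. miR-181d-5p was at 56.5, 37.8 and 67.9 RPM in SE-BDEV and 39.5, 50.8 and 57.2 RPM in CON-BDEV. miR-181c-5p was at 45.1, 23.2 and 49.5 RPM in SE-BDEV and 51.6, 21.6 and 42.7 RPM in CON-BDEV. For miR-181c-5p the libraries numbered 2 were low in both groups, and their counting intervals (exact Poisson, 95%) of 19.2 to 27.8 RPM in SE-BDEV 2 and 18.5 to 25.0 RPM in CON-BDEV 2 lay below those of the other 4, the lowest of which began at 37.9 RPM. These intervals cover counting error only. miR-181d-5p, from the neighbouring hairpin, was not low in CON-BDEV 2, and the ratio of miR-181d-5p to miR-181c-5p was 1.25, 1.63 and 1.37 in SE-BDEV 1 to 3 and 0.767, 2.35 and 1.34 in CON-BDEV 1 to 3. The CON-BDEV ratios thus spanned the whole SE-BDEV range.

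Among the 3p arms, miR-181a-1-3p was the highest, at 113, 75.3 and 78.7 RPM in SE-BDEV and 52.7, 78.7 and 90.1 RPM in CON-BDEV. miR-181c-3p was at 29.2, 9.41 and 36.6 RPM in SE-BDEV and 20.5, 14.6 and 22.7 RPM in CON-BDEV. It was lowest in the libraries numbered 2 in both groups, as its 5p partner was. miR-181a-2-3p was at 22.1, 15.8 and 17.5 RPM in SE-BDEV and 16.8, 11.9 and 15.8 RPM in CON-BDEV. For all 3 of these arms the ranges of the groups overlapped.

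The remaining 3p arms were the lowest of the family, and both 3p arms of miR-181b were at few reads. miR-181d-3p was at 8.20 RPM in SE-BDEV 1 and 8.59 RPM in SE-BDEV 3 and listed at 0 in SE-BDEV 2, against 10.7, 5.89 and 5.47 RPM in CON-BDEV 1 to 3. A count of 3 reads corresponded to 0.600 RPM in SE-BDEV 2, well under the lowest listed value of this arm. miR-181b-1-3p was listed at 0 in SE-BDEV 2, CON-BDEV 1 and CON-BDEV 3, and at 6 and 3 reads in SE-BDEV 1 and 3 and 9 reads in CON-BDEV 2. miR-181b-2-3p had 19, 4 and 10 reads in SE-BDEV 1 to 3 (2.02, 0.801 and 1.48 RPM), and 5 reads in CON-BDEV 2 (0.614 RPM) with 0 listed in CON-BDEV 1 and 3. All SE-BDEV values of miR-181b-2-3p lay above all CON-BDEV values. Among the 308 miRNAs at a mean of 10 RPM or more, the groups did not overlap for 16.2%. No such share was computed for miRNAs as low as this arm. The 95% exact Poisson intervals of miR-181b-2-3p, however, ran up to 1.43 RPM in CON-BDEV 2, 0.838 RPM in CON-BDEV 1 and 0.561 RPM in CON-BDEV 3. Those of CON-BDEV 2 and CON-BDEV 1 held the 0.801 RPM of SE-BDEV 2, and that of CON-BDEV 3 did not. The limits for CON-BDEV 1 and CON-BDEV 3 take a listed 0 as 0 reads. The smallest value listed in each library was 2 reads, so whether a listed 0 means 0 reads is not known. The interval of SE-BDEV 2 itself began at 0.218 RPM. The 3 arms that begin with A (miR-181a-1-3p, miR-181a-2-3p and miR-181c-3p) spanned 9.41 to 113 RPM over the 6 libraries, and the 3 that begin with C spanned 0 to 10.7 RPM.

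**Figure D1:**
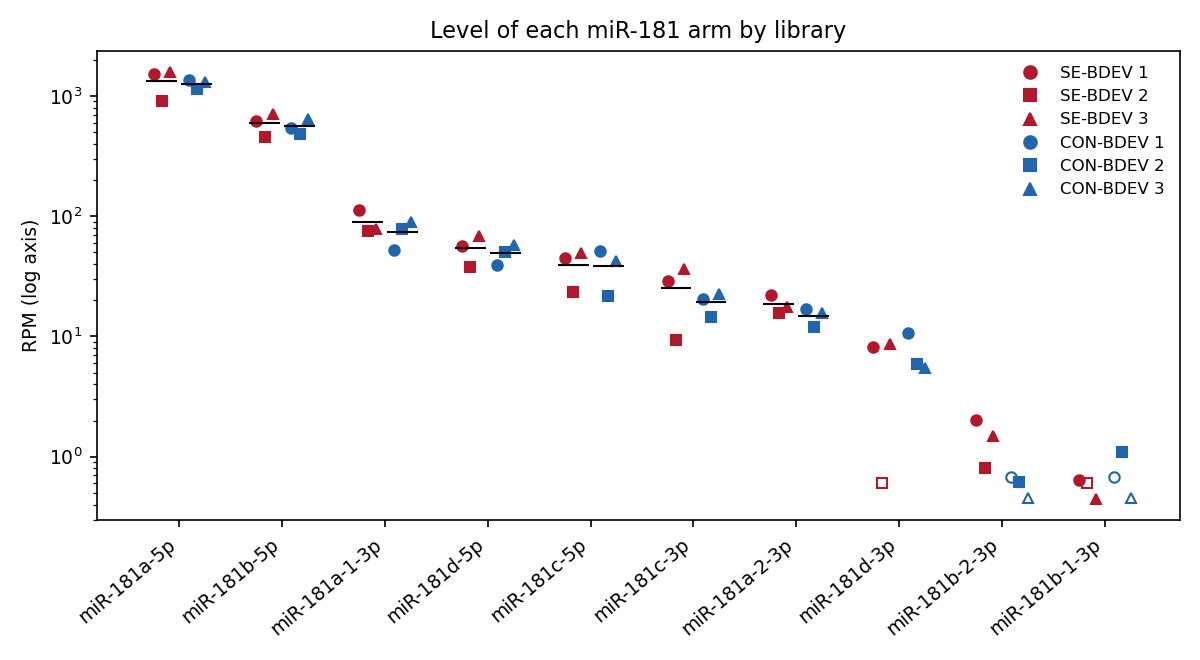
RPM (log axis) of the 10 miR-181 arms in each SE-BDEV (red) and CON-BDEV (blue) library, with group means as black lines for the 7 arms above 0 in all libraries. Open symbols mark a listed 0, drawn at the RPM of 3 reads in that library. miR-181a-5p spans 899 to 1577 RPM, and the groups overlap for every arm but miR-181b-2-3p, which is at few reads. Of the 308 miRNAs at a mean of 10 RPM or more, 16.2% did not overlap between groups.

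In order of mean level over the 6 libraries, listed zeros included, the family ran miR-181a-5p, miR-181b-5p, miR-181a-1-3p, miR-181d-5p, miR-181c-5p, miR-181c-3p, miR-181a-2-3p, miR-181d-3p, miR-181b-2-3p and miR-181b-1-3p. The first 3 places held in 6 of 6 libraries, with ranges that did not overlap between neighbours in either group. miR-181a-1-3p was above miR-181d-5p in 6 of 6 libraries, although their CON-BDEV ranges overlapped. miR-181d-5p and miR-181c-5p did not differ beyond their spread (5 of 6 libraries, ranges overlapping in both groups), and the same held for miR-181c-3p and miR-181a-2-3p. miR-181c-5p was above miR-181c-3p in 6 of 6 libraries, although their ranges overlapped in both groups. The 3 lowest arms followed, with miR-181b-2-3p above miR-181b-1-3p in 3 of 6 libraries. A 3p arm from chromosome 1 was thus listed above both 5p arms from chromosome 8 in mean level.

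The comparison stated by the design is SE-BDEV against CON-BDEV. No miR-181 member passed the test: of the 7 members at a mean of 10 RPM or more, 0 passed the limma threshold (adjusted p under 0.05) and 0 had an unadjusted p under 0.05. Over all 308 tested miRNAs these shares were 0.974% (3 miRNAs) and 10.4% (32 miRNAs). With the replicate number as a block, limma called 10 miRNAs, 0 of them members. The groups did not overlap for 0 of the 7 members, against 16.2% of the 308. The authors' deposited table called 0 members as well, against 1.12% of the 625 rows to which it gives an adjusted p.

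The log2 differences of the 7 tested members, on the log2(RPM + 1) scale, were small beside their errors. miR-181a-5p averaged 1327 ± 373 RPM in SE-BDEV and 1265 ± 118 RPM in CON-BDEV (SD, n = 3 each), a log2 difference of 0.03 ± 0.28 (SE, limma adjusted p = 0.964). Its 95% interval ran from -0.57 to 0.63, which includes changes in either direction. miR-181b-5p averaged 595 ± 129 RPM in SE-BDEV and 557 ± 79.6 RPM in CON-BDEV (SD, n = 3 each), with a log2 difference of 0.08 (interval -0.54 to 0.70, limma adjusted p = 0.933). miR-181d-5p had a log2 difference of 0.11 (interval -0.59 to 0.81) and miR-181c-5p of 0.04 (interval -0.82 to 0.90). Of the 4 5p arms, miR-181a-5p and miR-181c-5p were below 0 with median-of-ratios scaling, and miR-181b-5p joined them when the total was taken without the 10 most abundant miRNAs and with quantile normalization.

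The 3p arms had log2 differences of 0.28 (interval -0.42 to 0.98) for miR-181a-1-3p, 0.30 (interval -0.41 to 1.01) for miR-181a-2-3p and 0.19 (interval -0.77 to 1.16) for miR-181c-3p. Their limma adjusted p-values were 0.777, 0.759 and 0.901. The widest interval was that of miR-181c-3p, whose 3 SE-BDEV values were the most spread on the log2 scale. Under every scaling tried the 3 values were above 0, but without SE-BDEV 3 that of miR-181c-3p was -0.17.

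All 7 tested members had values above 0, with a median log2 difference of 0.11, while 57.5% of all 308 tested miRNAs were above 0, with a median of 0.06. That share was 46.8% when the total was taken without the 10 most abundant miRNAs and 47.1% with quantile normalization. This shared sign rested on single libraries and on the scaling. Without SE-BDEV 3, 2 of the 7 were above 0, and without SE-BDEV 2 all 7 were, with a median of 0.37. Without CON-BDEV 2 or without SE-BDEV 1 it was 4 of 7 each. With median-of-ratios scaling 5 of 7 were above 0, and 4 of 7 with quantile normalization, with totals that left out the 10 most abundant miRNAs, or without both libraries numbered 3. In bulk vesicle RNA, fewer vesicles of a cell type and less of a miRNA per vesicle cannot be told apart.

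**Figure D2:**
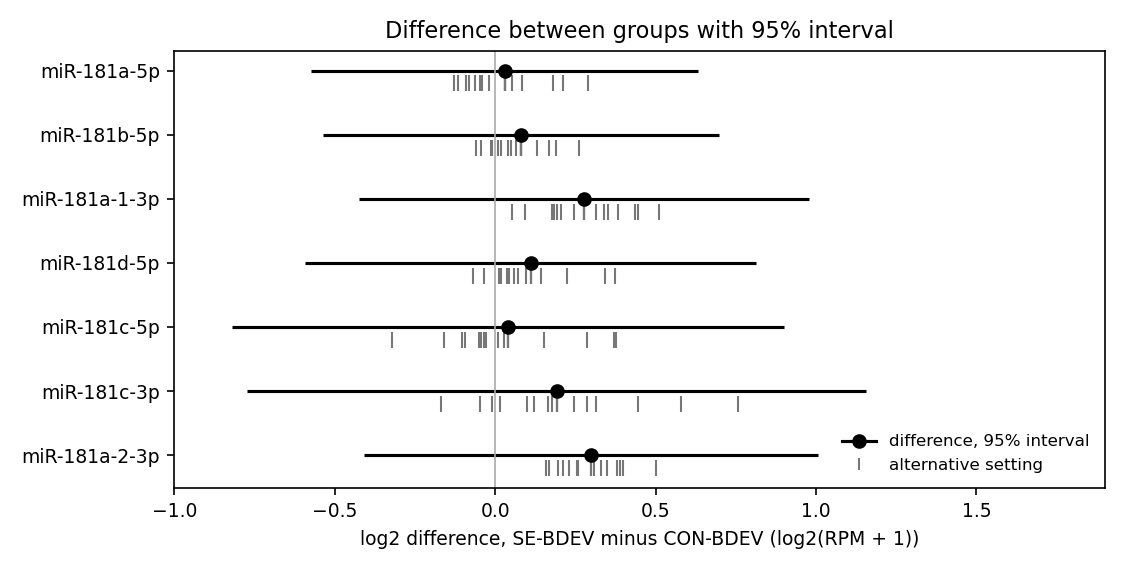
Log2 difference between SE-BDEV and CON-BDEV for the 7 tested members, with its 95% interval (black), and the values under each alternative setting (grey ticks, drawn just below). All intervals include 0. For miR-181a-5p the ticks run from -0.13 to 0.29, on both sides of 0.

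In the authors' deposited table the members had log2 fold changes of -0.02 for miR-181a-5p, 0.02 for miR-181b-5p, -0.03 for miR-181c-5p and 0.04 for miR-181d-5p. For the 3p arms the authors' deposited table gave 0.18 for miR-181a-1-3p, 0.26 for miR-181a-2-3p and 0.29 for miR-181c-3p. It also held the members under the limma filter: miR-181d-3p at -0.52 with a standard error of 1.28, miR-181b-1-3p at -0.35 with 3.36, and miR-181b-2-3p at 2.48 with 2.07. The deposited adjusted p was 0.811 for miR-181b-2-3p and NA for miR-181b-1-3p, and each of these 3 arms was listed at 0 in at least 1 library.

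Arm ratios within a library do not depend on how that library was scaled. miR-181c had the most balanced arms, its 3p arm at 64.6%, 40.5% and 74.0% of its 5p arm in SE-BDEV 1 to 3 and at 39.6%, 67.6% and 53.0% in CON-BDEV 1 to 3. The groups overlapped throughout. The means were 59.7% ± 17.3 in SE-BDEV and 53.4% ± 14.0 in CON-BDEV (SD, n = 3 each), a log2 difference of 0.15 (two-sided exact permutation p = 0.7).

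miR-181a-1-3p stood at 6.95% ± 1.76 of miR-181a-5p in SE-BDEV and 5.91% ± 1.76 in CON-BDEV (SD, n = 3 each, two-sided exact permutation p = 0.5). miR-181a-2-3p stood at 1.45% ± 0.326 of miR-181a-5p in SE-BDEV and 1.17% ± 0.101 in CON-BDEV (SD, n = 3 each, two-sided exact permutation p = 0.3). Since both hairpins feed the same 5p arm, these shares are not the arm ratio of either hairpin. Adjusted over the 3 ratios tested, p = 0.7 for each (exact permutation), and 3 libraries against 3 cannot give a p below 0.1. The groups did not overlap for 0 of the 3 ratios, against 6.38% of the 94 names with both arms above 0 in all libraries and at least 1 arm at a mean of 10 RPM or more. These 94 names include miR-181c but not miR-181a, whose 3p arms carry locus numbers. Without SE-BDEV 3, both miR-181a ratios were higher in the SE-BDEV libraries with no overlap (log2 difference 0.47 for each, exact permutation p = 0.2), a setting in which 18.1% of the 94 names did not overlap.

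The 2 miR-181a loci can be compared through their 3p arms. The ratio of miR-181a-1-3p, from chromosome 1, to miR-181a-2-3p, from chromosome 2, was 5.10, 4.76 and 4.50 in SE-BDEV 1 to 3 and 3.14, 6.61 and 5.70 in CON-BDEV 1 to 3. Every library had more of the chromosome 1 arm, and the SE-BDEV ratios lay inside the CON-BDEV range. How well each 3p arm survives and is captured in a library was not measured, so the ratio is one of 3p reads and not of transcription. For miR-181d the 3p arm was at 14.5% and 12.7% of the 5p arm in SE-BDEV 1 and 3 (listed at 0 in SE-BDEV 2), against 27.0%, 11.6% and 9.57% in CON-BDEV 1 to 3. The 3p arms of miR-181b were at no more than 0.327% of miR-181b-5p in any library.

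**Figure D3:**
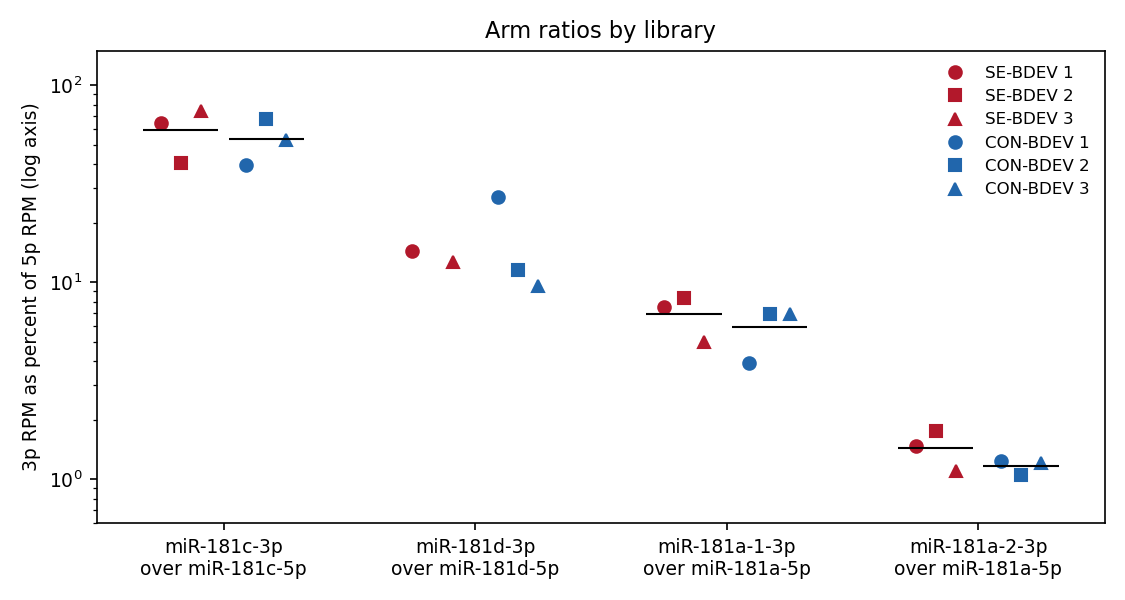
3p RPM as a percent of 5p RPM (log axis) by library, with group means as black lines where no library is at 0. miR-181c lies between 39.6% and 74.0%, the miR-181a arms at 8.37% or less, and SE-BDEV 2 has no point for miR-181d because its 3p arm was listed at 0.

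The members differed in how they varied between libraries. In SE-BDEV, library 2 was the lowest of 3 for 7 of the 7 tested members, while it was lowest for 52.6% of all 308 tested miRNAs. In CON-BDEV, library 2 was the lowest for 5 of 7, beside 51.9% of all. The exceptions were miR-181a-1-3p and miR-181d-5p, for which CON-BDEV 1 was lowest. SE-BDEV 2, with 4996073 reads, had the fewest reads of its group. CON-BDEV 1 was the library of fewest reads of all, and CON-BDEV 2, with 8147118 reads, was the deepest of its group.

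Relative to its own mean over the 6 libraries, miR-181b-5p followed miR-181a-5p with a root mean square difference of 0.128 on the log2 scale, while miR-181c-5p followed it with 0.300 and miR-181a-1-3p with 0.377. The non-members most like miR-181a-5p, among the 127 at a mean of 100 RPM or more, were miR-31-5p (0.0572), miR-30d-5p (0.0580), miR-674-5p (0.0821), miR-149-5p (0.130) and miR-300-5p (0.139), beside a median of 0.362. Thus 3 of these 127 non-members lay closer to it than any tested miR-181 arm. Of those other arms only miR-181b-5p had a mean of 100 RPM or more, and lower levels carry more counting error. For miR-181c-5p the nearest non-members were miR-30d-5p (0.268), miR-674-5p (0.271), miR-127-5p (0.281), miR-99b-3p (0.292) and miR-341-3p (0.307), beside a median of 0.518. miR-181a-5p stood at 0.300 from it, its own 3p arm at 0.333 and its neighbour miR-181d-5p at 0.467. With 6 libraries that share depth and scaling among all miRNAs, these distances are descriptions.

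**Figure D4:**
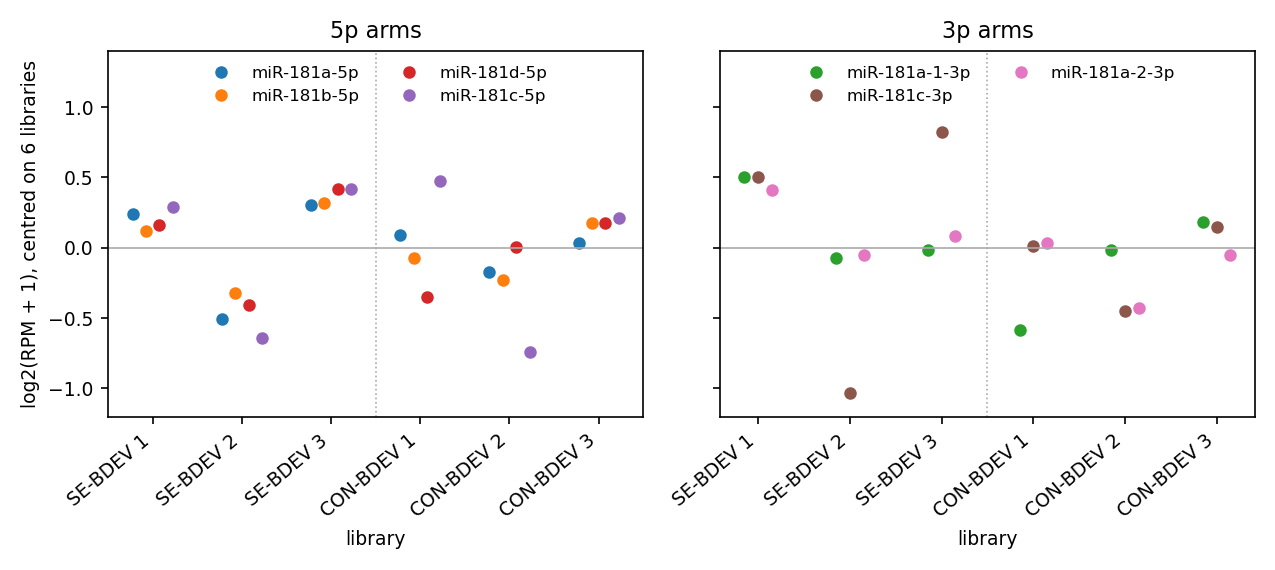
log2(RPM + 1) of the 7 tested members minus each member's mean over the 6 libraries, for SE-BDEV libraries left of the dotted line and CON-BDEV libraries right of it. The 5p arms all lie below 0 in SE-BDEV 2, and in CON-BDEV 2 miR-181c-5p lies lowest while miR-181d-5p lies close to 0.

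Other miRNAs with known targets in common with miR-181 were counted beside it. Of 6 miRNAs known to target Bcl2, 0 passed, all 6 had values above 0 (5 of 6 with quantile normalization or with totals that left out the 10 most abundant miRNAs, and 4 of 6 with array weights), and their median log2 difference was 0.44. Those of smallest p were miR-15b-5p, at 99.3, 78.7 and 65.3 RPM in SE-BDEV and 42.7, 44.3 and 40.7 RPM in CON-BDEV (log2 difference 0.89, limma adjusted p = 0.344), and miR-16-5p (log2 difference 0.51, limma adjusted p = 0.405). Of 4 miRNAs known to target AMPA receptor subunits, 2 had values above 0 and 2 below, 0 passed, and the median was 0.12. Those of smallest p were miR-137-3p (log2 difference 0.63, limma adjusted p = 0.570) and miR-501-3p (-0.57, limma adjusted p = 0.678). Over all 308 tested miRNAs 0.974% passed and 57.5% had values above 0, with a median of 0.06. The share above 0 was 47.1% with quantile normalization and 64.0% with array weights. With totals that left out the 10 most abundant miRNAs it was 46.8%. Neither list's values were tested against those of miR-181.

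miRNAs known from particular cell types were counted in the same libraries. miR-155-5p, which is induced in activated immune cells, was at 219, 259 and 189 RPM in SE-BDEV and 37.0, 27.7 and 39.4 RPM in CON-BDEV. Of 8 tested miRNAs of microglia and other immune cells, 7 were above 0 (6 with quantile normalization), with a median log2 difference of 1.53. The 1 below 0 was miR-150-5p (-0.27), and miR-342-3p was at 0.11. In the limma fit 3 passed, all higher in SE-BDEV (miR-142a-5p, miR-21a-5p and miR-155-5p). That number was 2 with totals that left out the 10 most abundant miRNAs, and 4 with array weights or the replicate block. It was 2 to 4 when 1 library was left out. The summed level of the 9 listed was 2340 to 3047 RPM in SE-BDEV and 1922 to 2526 RPM in CON-BDEV. Most of that sum was miR-342-3p, at 1756 to 2326 RPM in SE-BDEV and 1676 to 2336 RPM in CON-BDEV. None of the 13 neuronal, 4 astrocyte, 2 endothelial, 2 tested oligodendrocyte or 1 tested red blood cell miRNAs passed. Of the 13 neuronal miRNAs 11 were above 0, with a median log2 difference of 0.31. All astrocyte (median 0.36), endothelial (0.60) and oligodendrocyte (0.45) miRNAs tested were above 0, and the red blood cell one was at -0.07. Without SE-BDEV 3 the neuronal and astrocyte medians were each 0.09. Over all 308 tested miRNAs 0.974% passed and 57.5% were above 0, with a median of 0.06. The neuronal sum was 27175 to 49376 RPM in SE-BDEV and 28788 to 35537 RPM in CON-BDEV, and the astrocyte sum was 5910 to 11435 RPM in SE-BDEV and 6835 to 7481 RPM in CON-BDEV. The endothelial sum was 4116 to 6342 RPM in SE-BDEV and 2828 to 4276 RPM in CON-BDEV. The oligodendrocyte sum was 198 to 296 RPM in SE-BDEV and 137 to 170 RPM in CON-BDEV. In RPM, the ranges of all of these sums, the immune one included, were wider in SE-BDEV, as that of the summed miR-181 level was. Ranges relative to the level of each sum were not compared. The red blood cell sum was wider in CON-BDEV. The part of these cell types in the miR-181 values was not tested.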

How the data were processed

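Small RNA from brain vesicles was purified with the miRNeasy Micro Kit and sequenced after the QIAseq miRNA Library Kit, per the labels' protocols. The authors deposited RPM values, each library scaled to 1000000 reads over the listed miRNAs, and a table of their comparison with log2 fold changes, p-values, a mean normalized signal and a test score. DESeq2 and mm9 are named in the submitters' processing notes. The aligner, the counting method and any collapsing by molecular identifier were not given in the sources used here. Each library's RPM values were multiples of 1 step, within 0.001 read, and that step was used as 1 read to give depths. No value of 1 read was listed (the smallest was 2), so a count model was not used.

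limma 3.58.1 (R 4.3.3) was fitted to log2(RPM + 1) with trend and robust empirical Bayes, two-sided, over the 308 miRNAs whose mean reached 10 RPM, with Benjamini-Hochberg adjustment. Arm ratios were tested by exact permutation (scipy 1.17.1). The fit was tested on simulated data. Figures used matplotlib 3.10.9. Members, context lists and marker lists were chosen with earlier results of these data known. Members are named by rule, as are the 2 miRNAs of smallest p per context list and the 5 of nearest pattern. GENCODE M21 and RefSeq are of GRCm38, another build than mm9, so no coordinates are given.

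Same-numbered libraries had correlated deviations from the group means (0.216, 0.202 and 0.462), over the bound of 0.1 for treating numbers as pairs. SE-BDEV 1 with CON-BDEV 2 (0.336) and SE-BDEV 2 with CON-BDEV 1 (0.200) were over it too. The other differently numbered libraries were at -0.41 to -0.27. Without miR-24-3p the same-numbered values were -0.06, -0.06 and -0.08, and nothing in the labels pairs the libraries.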

Additional observations from a re-analysis of the deposited data

How the results depend on the processing

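None of the 7 tested members was called under any alternative, the replicate block and the authors' deposited table included (at a mean of 100 RPM or more 2 members were tested). Over all miRNAs 3 were called, against 10 with the replicate block, 6 with array weights, 1 at a mean of 100 RPM or more, 7 in the authors' deposited table and 2 to 8 when 1 library was left out, the 8 being without CON-BDEV 2. The block changed no call of a member. Uncalled log2 differences changed sign as follows. With median-of-ratios scaling miR-181a-5p was at -0.0417 and miR-181c-5p at -0.0299. With totals taken without the 10 most abundant miRNAs, miR-181a-5p was at -0.0627, miR-181b-5p at -0.0111 and miR-181c-5p at -0.0517, and with quantile normalization at -0.13, -0.0448 and -0.10. The authors' deposited table gave -0.0196 for miR-181a-5p and -0.0347 for miR-181c-5p. Without both libraries numbered 3, miR-181a-5p was at -0.0924, miR-181c-3p at -0.0462 and miR-181c-5p at -0.0445. Leaving out 1 library gave -0.12 to 0.29 for miR-181a-5p, -0.0583 to 0.26 for miR-181b-5p, -0.17 to 0.76 for miR-181c-3p, -0.32 to 0.37 for miR-181c-5p and -0.0701 to 0.34 for miR-181d-5p. Among the 3 scalings the largest shift of the median of all miRNAs was -0.0889.

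Of the 3 arm ratios 0 had groups without overlap, against 0 to 2 when 1 library was left out, 1 without both libraries numbered 2 and 2 without both numbered 3. Of all 94 names with both arms, 6.38% did not overlap with every library in, 9.57% to 19.1% with 1 left out, 31.9% without both numbered 2 and 37.2% without both numbered 3. The miR-181c ratio difference was -0.0170 without both numbered 3 and -0.0496 to 0.41 with 1 library left out, and that of miR-181a-1-3p -0.0295 to 0.47. Paired sign flips over same-numbered libraries gave exact p-values of 0.5 to 1, with a smallest possible p of 0.25. The runs without both libraries of a number were chosen after seeing the data. The planned edgeR fit was not run, because the values were not taken as counts. Where fewer libraries or miRNAs do not account for a change, the cause was not tested. With 3 libraries per group the widest 95% interval of a member ran from -0.77 to 1.16, and the 3 arms under the filter have no limma value here.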
